A study of Mus musculus with 18 samples.

Results

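Mammary epithelium of pre-pubertal C57BL/6 mice was compared with that of adult virgin C57BL/6 mice in 3 epithelial classes: basal cells, luminal progenitors (LP) and mature luminal cells (ML). The cells were chosen by a fixed gate on their keratin and lineage transcripts. A cell with at least 500 genes and under 20% mitochondrial transcripts was basal if Krt5 and Krt14 together exceeded Krt8 and Krt18 and if it held at least 2 transcripts of Acta2, Cxcl14 and Il17b. It was luminal if Krt8 and Krt18 were the larger pair. A luminal cell was LP if Kit, Elf5, Aldh1a3, Cd14 and Plet1 gave at least 2 transcripts and more than Prlr, Cited1, Areg, Pgr and Esr1, and ML if the latter gave at least 3 and more than the former. In all, 15072 cells passed, 3467 of them pre-pubertal and 11605 adult, of 149371 cells deposited for the 18 libraries of the series.

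Both groups were C57BL/6 glands for which the sources give no transgene or treatment, and each was a single droplet library made from the pooled glands of several mice. The study's figure legends give many more mice for the pre-pubertal pool than for the adult one. The labels give an age of 2.5 weeks for the pre-pubertal mice, while the study's text puts them somewhat younger, and an age of 10 weeks for the adult virgins. The adults were not staged for estrus. Cells were depleted of blood and endothelial cells by sorting, dead cells were excluded, and equal cell numbers were loaded. The study describes the pre-pubertal sort as CD29-high and CD24-positive, a gate that favours basal cells. Its list of libraries, however, describes the cells of every stage as total epithelial cells. How closely the adult C57BL/6 sort matched the pre-pubertal one was not given beyond this in the sources used here. Both libraries were processed alongside a library from adult SWISS mice. With 1 library per group there was no replicate check, so every interval below (95%) covers counting error only and no p-value is given. As a measure of how far adult libraries differ among themselves, values were also taken in the same classes of all 5 adult libraries (C57BL/6, SWISS and the FVB/NJ libraries A10, P7 and D12, called the adult range), and in a C57BL/6 library of postnatal day 5.

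The mammary duct is a bilayer. Outer basal, or myoepithelial, cells carry contractile proteins and lie on the basement membrane, and an inner luminal layer holds progenitors that give rise to milk-secreting alveoli as well as mature cells that sense ovarian hormones. Before puberty the rudimentary ductal tree grows in proportion to the body. Ovarian estrogen then drives ductal elongation through estrogen receptor in mature luminal cells, which signal to their neighbours through secreted factors such as amphiregulin, while progesterone later drives side branching.

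The pre-pubertal library held 39445446 unique transcripts (unique molecular identifiers, UMIs) in 4183 barcodes, of which 4092 passed the filters with a median of 7300.5 UMIs and 2398 genes per cell. The adult library held 71021911 UMIs in 13269 barcodes, of which 12561 passed with medians of 4964 UMIs and 1873 genes. Pre-pubertal cells were the deeper in every class, with a median of 6989.5 against 3579 UMIs in basal, 7995 against 3342 in LP and 15038.5 against 6816 in ML cells. Levels are therefore given as counts per 1000000 UMIs of a class (CPM), and shares of cells after thinning every cell to 2000 UMIs. The libraries shared 15 cell barcodes.

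Some broad differences between the libraries stand beside the results below. Haemoglobin transcripts came to 2572, 3314 and 1665 CPM in pre-pubertal basal, LP and ML cells and to at most 11.8 CPM in the adult. Over 1000 CPM was reached by only 16 of 2360 basal, 8 of 579 LP and 3 of 528 ML cells, so the class sums do not give the level of most cells. Endothelial-like cells of the same library stood at 134 CPM. Mitochondrial transcripts took 8.67%, 5.45% and 6.60% of UMIs against 5.18%, 3.53% and 4.46% in the adult. Both libraries also held cells that the gates left out, with collagen markers and little keratin, 364 before puberty and 566 in the adult. They are called collagen-marker cells here and given no cell type name. Markers of other cell types also differed in the gated cells. Summed fibroblast markers came to 135, 43.5 and 39.6 CPM in pre-pubertal basal, LP and ML cells and to 574, 590 and 151 CPM in adult ones. The part of this RNA in the gene differences was not tested.

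A large group of genes was lower in the pre-pubertal library in all 3 epithelial classes and, for most of them, in other cells. Of the 4854 genes measured in all 3 classes, 320 were at least 2-fold lower in each of them, leaving out haemoglobin, mitochondrial and ribosomal genes. Their summed level was 15606 against 67553.5 CPM in basal cells, 12730.5 against 62595 CPM in LP and 13686 against 55696 CPM in ML. Their sum was also lower in cells that are not epithelial: 21389 against 66629 CPM in 13 and 37 endothelial-like cells (184 of the 211 genes with at least 5 UMIs were lower), 18587 against 58966 CPM in 9 and 38 pericyte-like cells (231 of 250), and 19077 against 81517 CPM in collagen-marker cells. In collagen-marker cells 80.7% of the 305 measured genes of the group were at least 2-fold lower, against 21.5% of all 7135 measured genes. The postnatal day 5 library, with 42382 to 51693 CPM over the same classes, lay below the adult C57BL/6 library and well above the pre-pubertal one. The genes were chosen on the values of those 2 libraries, so another library can fall between them through that choice alone. The group, called the shared lower group, held Cebpb and Cebpd (transcription factors), Jund (an AP-1 subunit), Apoe (a lipid carrier), B2m (the light chain of MHC class I), Epcam (an epithelial adhesion molecule) and Scand1. Apoe was an exception outside the epithelium, at 1056 against 481 CPM in collagen-marker cells. For most of the group a difference of the epithelial cells and a difference of the whole library cannot be told apart. Membership is given where genes of the group are named in these results. Gate genes and genes not measured in all 3 classes could not enter the group. Standing outside it therefore does not separate these differences either.

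**Figure D1:**
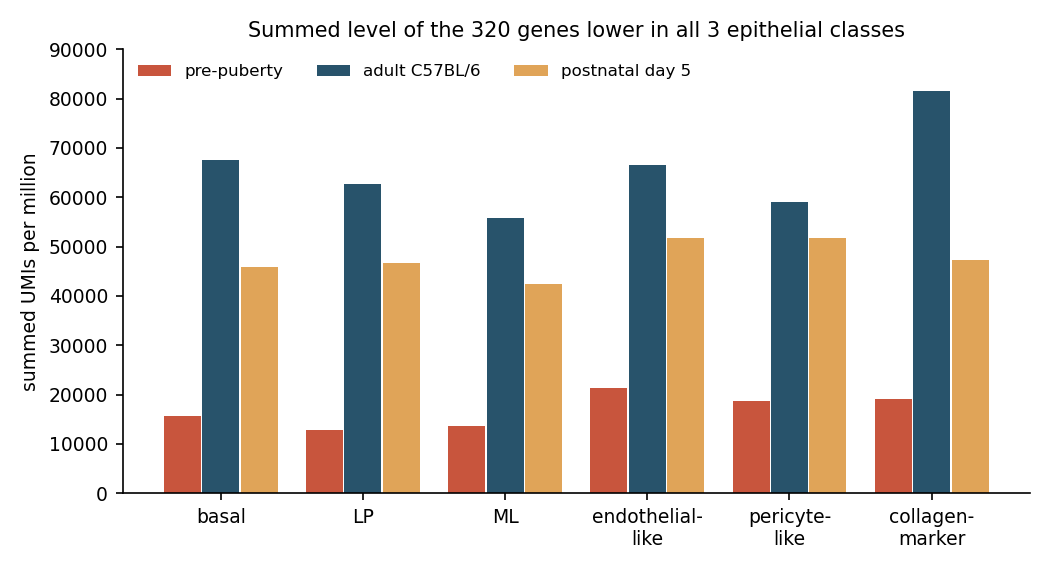
Summed level, in CPM, of the 320 genes lower in all 3 epithelial classes, in basal, LP, ML, endothelial-like, pericyte-like and collagen-marker cells of the pre-puberty, adult C57BL/6 and postnatal day 5 libraries. The pre-puberty bars lie between 12730.5 and 21389 CPM and the adult bars between 55696 and 81517 CPM, in epithelial and other classes alike.

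Basal cells made up most of the pre-pubertal epithelium and mature luminal cells most of the adult one. Of gated pre-pubertal cells, 68.1% were basal (interval 66.5 to 69.6, 2360 cells), 16.7% LP (15.5 to 18.0, 579 cells) and 15.2% ML (14.0 to 16.5, 528 cells). Of adult cells, 23.9% were basal (23.1 to 24.7, 2776 cells), 23.1% LP (22.4 to 23.9, 2685 cells) and 52.9% ML (52.0 to 53.9, 6144 cells). The differences were 44.1 percentage points for basal (42.4 to 45.9), -6.44 for LP (-7.87 to -4.95) and -37.7 for ML (-39.2 to -36.2). With at least 1000 genes per cell the LP difference was -3.58 (-5.01 to -2.09). The other adult libraries had 33.1% to 42.0% basal and 33.7% to 39.1% ML cells, so the adult C57BL/6 library was itself the lowest in basal and the highest in ML. Postnatal day 5 had 70.9% basal, 12.2% LP and 16.8% ML cells, close to the pre-pubertal shares. The study's text gives the CD29-high gate for its FVB adults too, and the FVB/NJ libraries held 35.2% to 42.0% basal cells. Such a gate would raise the basal share, and the adult C57BL/6 sort is given only as total epithelial cells, a term the study uses for all stages. The sort and the age of the gland therefore cannot be told apart in these shares.

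**Figure D2:**
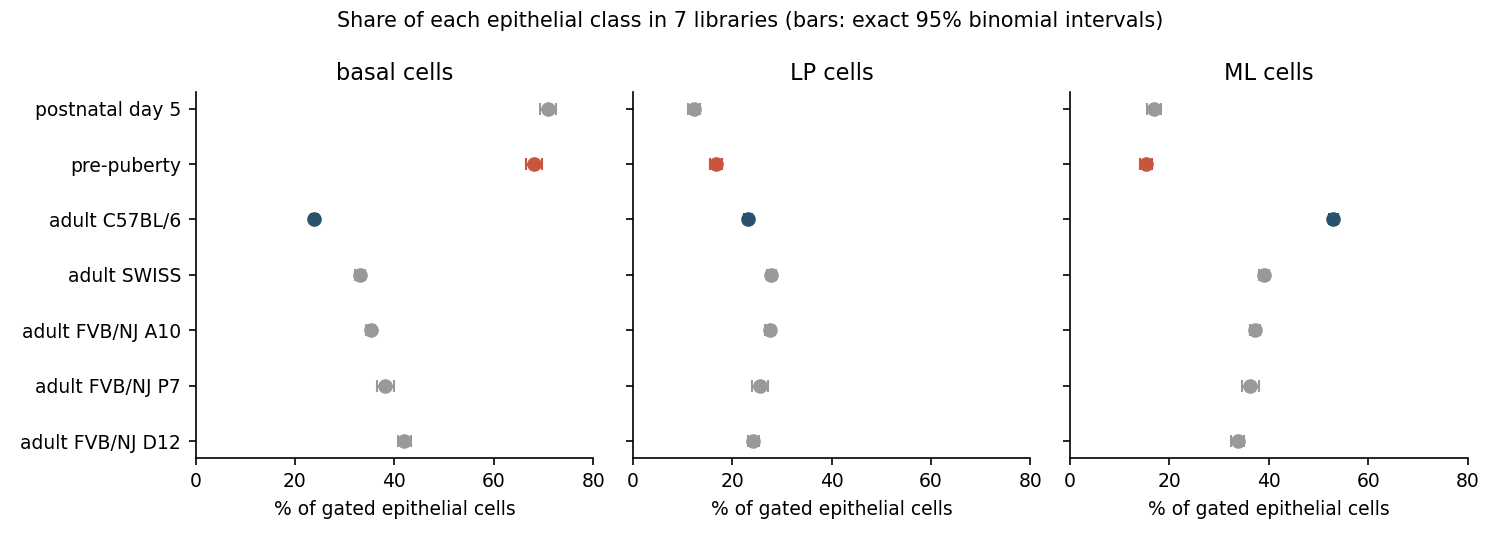
Share of gated epithelial cells, in percent, that were basal, LP and ML (3 panels) in 7 libraries, with exact binomial 95% intervals as bars. The pre-puberty and postnatal day 5 libraries lie at 68.1% and 70.9% basal, above the 5 adult libraries, which lie between 23.9% and 42.0%.

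Keratin pairs, which mark the basal layer (Krt5, Krt14) and the luminal layer (Krt8, Krt18) of the adult gland, were more often found in the same cell before puberty. After thinning, 56.5% of pre-pubertal basal cells (54.5 to 58.6) held at least 2 UMIs of each pair against 35.1% of adult ones (33.2 to 36.9). In LP the shares were 15.7% (12.8 to 18.9) and 2.86% (2.23 to 3.62), and in ML 7.20% (5.14 to 9.74) and 3.55% (3.09 to 4.05). Without thinning they were 91.3% and 61.4% in basal, 26.8% and 3.76% in LP, and 24.1% and 5.73% in ML cells. No cell class outside the epithelium could serve as a background, because those classes were chosen for low keratin. The LP share lay above all 5 adult libraries, which spanned 2.06% to 10.2%, and postnatal day 5 stood higher still at 32.8%. The basal share lay within the adult libraries, which ran from 11.2% in SWISS to 63.2% in P7, and the ML share lay below the 9.37% of D12. Cells enter a class whichever pair leads, and no doublets were removed.

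**Figure D3:**
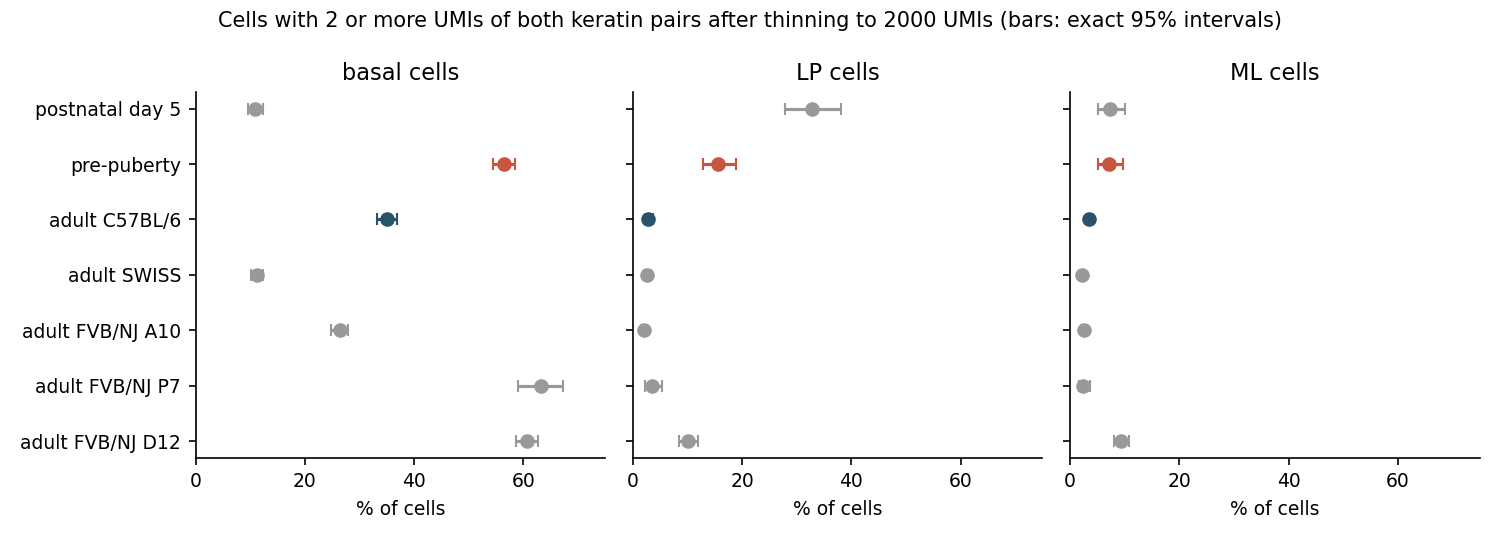
Share of cells, in percent, with at least 2 UMIs of both keratin pairs after thinning to 2000 UMIs, in basal, LP and ML cells of 7 libraries, with exact binomial 95% intervals as bars. In LP the pre-puberty library (15.7%) lies above the 5 adult libraries (2.06% to 10.2%) and below postnatal day 5 (32.8%).

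Single keratins were measured in gates rebuilt without the gene in question. Krt5, a basal keratin, stood at 1637 against 671 CPM in basal cells (2.44 times higher before puberty, 2.38 to 2.50), above the adult range of 360 to 718 CPM, and at 57 against 22.2 CPM in LP. Krt14, its partner, differed little in basal cells (3626 against 3287 CPM), while in LP it was 547 against 151 CPM (3.63 times higher, 3.43 to 3.85), above the adult range of 88.8 to 374 CPM. Basal cells also held more Krt8, a luminal keratin, at 937 against 469 CPM (ratio interval 1.94 to 2.06), but less of its partner Krt18, at 287 against 408 CPM. The Krt18 ratio was 0.704 in this gate and 0.938, nearly level, with Krt18 kept in the gate. The basal gate without Krt14 held only 1583 pre-pubertal and 1182 adult cells. In ML cells both luminal keratins were lower before puberty, Krt8 at 2111 against 5063 CPM and Krt18 at 3073 against 5607 CPM.

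Across the transcriptome, a gene was counted as measured in a class if it reached 20 CPM in either library and 30 UMIs in both together, and as different if the libraries were at least 2-fold apart. In basal cells 731 of 6414 genes were higher before puberty (11.4%) and 816 lower (12.7%). With TMM and DESeq2 size factors, which rescale the libraries, the basal counts became 482 higher and 1009 lower, and 475 and 1014. In LP 283 of 5980 were higher (4.73%) and 759 lower (12.7%), and in ML 372 of 6088 were higher (6.11%) and 878 lower (14.4%). With totals that leave out mitochondrial, ribosomal and haemoglobin genes the ML counts became 569 and 673. The count of each gene list below is to be read against these shares of its class. Taken in either direction they are 24.1%, 17.4% and 20.5% of genes. The same count between the adult SWISS and C57BL/6 libraries gave 17%, 15.8% and 14.6%, and between the FVB/NJ libraries A10 and D12 14.8%, 11.7% and 8.81%. Of the genes higher before puberty, 544 in basal, 211 in LP and 294 in ML cells were also above all 5 adult libraries. Of the lower genes 572, 540 and 602 were below all of them. Without the 320 genes lower in all 3 classes there remained 496 lower genes in basal, 439 in LP and 558 in ML cells. The median log2 ratio of all measured genes was 0.19, 0.05 and -0.04.

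**Figure D4:**
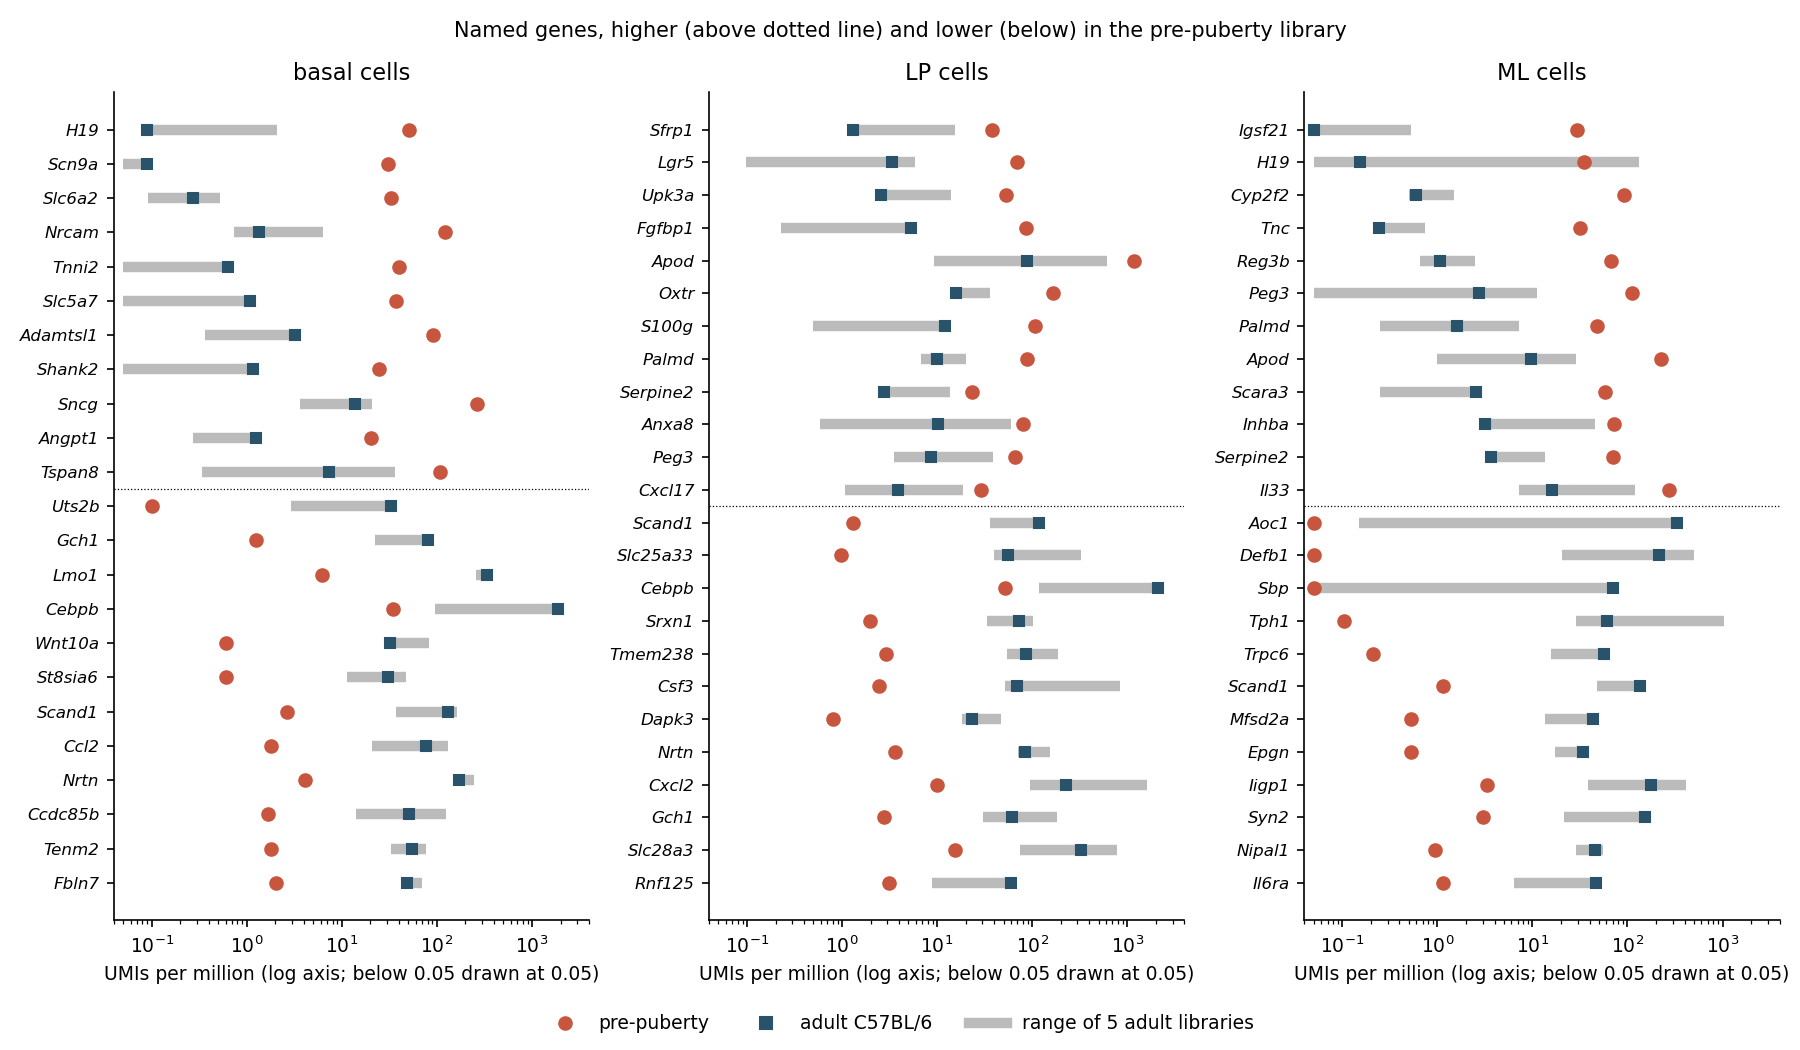
Levels of genes with the largest ratios in each class (higher and lower before puberty, above and below the dotted line) in CPM on a log axis, with pre-puberty as dots, adult C57BL/6 as squares and the range of 5 adult libraries in grey. Values below 0.05 CPM are drawn at 0.05. In ML the dots of Aoc1, Defb1 and Sbp lie at this edge, where no transcript was found before puberty.

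Mature luminal cells carried estrogen receptor before puberty but almost no amphiregulin. Areg, the epidermal growth factor receptor ligand that relays estrogen signalling in the pubertal gland, stood at 33.4 CPM in pre-pubertal and 2179 CPM in adult ML cells gated without it, 65.2-fold lower (58.4 to 73.0). All 5 adult libraries lay between 1434 and 3028 CPM and postnatal day 5 at 67.5 CPM, so the early libraries did not overlap the adult ones. After thinning, 21 of 527 pre-pubertal ML cells held an Areg transcript (3.98%) against 71.1% of adult ones, and without thinning 14.4% against 81.7%. Basal cells gave 0.0425% and 3.32% after thinning, and collagen-marker cells 0 of 346 (up to 0.867%) and 3.46%. The direction was thus the same in every class shown. As a gate gene Areg could not enter the shared lower group, and how far its difference belongs to the whole library was not tested. In LP cells, Areg was 1.29 against 109 CPM, 84.5-fold lower (42.7 to 196), and 6.45% of adult LP held it after thinning against 0 of 576 pre-pubertal ones. At that depth a count of 0 allows up to 0.521% of cells with a transcript detected, and without thinning the shares were 9.89% and 0.690%.

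The Areg gene is shown by the 250 bases before its start in RefSeq (chr5:91139349-91139598, plus strand, GRCm38.p6), because it had the largest ratio in ML cells among the measured hormone-related signals. Capitals mark the sequence TGACGTCA, the cyclic AMP response element, which begins 61 bases before the start.
Areg: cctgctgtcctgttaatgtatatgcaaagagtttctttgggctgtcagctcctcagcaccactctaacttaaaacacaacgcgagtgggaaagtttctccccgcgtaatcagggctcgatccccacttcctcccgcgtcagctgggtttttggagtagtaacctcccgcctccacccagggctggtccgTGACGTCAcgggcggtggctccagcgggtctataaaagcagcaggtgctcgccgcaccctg
This element was searched on both strands and was found in 1 of the 14 paracrine genes that had a promoter in the RefSeq set, and in 1.55% of all 32851 promoters. The palindromic estrogen response element (GGTCA, 3 bases of any kind, TGACC) was found in none of the 14 and in 0.0639% of all promoters. A match describes the letters only.

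Hormone receptors of ML cells differed gene by gene. Esr1, the estrogen receptor, stood at 202 against 54.8 CPM, 3.68 times higher before puberty (3.46 to 3.91) and above the adult range of 28.5 to 54.8 CPM, while postnatal day 5 had 52.2 CPM. Its transcript was found in 34.6% of pre-pubertal and 10.9% of adult ML cells after thinning, in 92.0% and 32.2% without, and in 0.213% and 1.25% of basal cells after thinning. Pgr, the progesterone receptor, was lower at 111 against 202 CPM (ratio 0.549, 0.514 to 0.585), and Prlr, the prolactin receptor, at 3193 against 5562 CPM (0.574, 0.566 to 0.582). Both lay within the adult range, Pgr between 59.4 and 202 CPM and Prlr between 1475 and 5562 CPM, and the adult C57BL/6 library was the highest of the 5 for each. Cited1, a co-activator for estrogen receptor, was 932 against 466 CPM and also within the adult range.

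Of 11 further hormone receptors and their co-factors measured in ML cells, 4 were at least 2-fold higher and 1 lower, with a median log2 ratio of 0.61 against -0.04 for all genes. Gata3, which sets luminal identity, was 650.3 against 272 CPM (2.39 times higher, 2.32 to 2.46; adult range 158 to 295). The growth hormone receptor Ghr was 27 against 8.26 CPM, the vitamin D receptor Vdr 38.8 against 17.3 CPM and the retinoic acid receptor Rara 46.9 against 22.0 CPM. The pioneer factor Foxa1 (265 against 174 CPM) and Tbx3 (156 against 88.7 CPM) were less than 2-fold apart. The lower gene was Xbp1, a factor of secretory cells, at 38.0 against 179 CPM, and it was lower in endothelial-like and pericyte-like cells as well.

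Signals that ML cells send to their neighbours were split, with 2 of 4 measured outside the gate higher and 2 lower. Wnt4, a progesterone-induced ligand, was 129 against 339 CPM, within the adult range of 32.1 to 421. Wnt5a, a non-canonical ligand, was 12.6 against 103 CPM in ML cells, 8.14-fold lower (6.79 to 9.85) and below the adult range of 55.0 to 150.1. In basal cells Wnt5a went the other way, at 100.3 against 38.4 CPM. After thinning, 1.33% of pre-pubertal and 17.1% of adult ML cells held it, against 18.3% and 6.94% of basal cells. Inhbb, an activin subunit, was 184 against 70.5 CPM in ML, and Inhba, another subunit, 72.3 against 3.18 CPM (22.7 times higher, 19 to 27.4), above the adult range of 2.72 to 45.4. Calca and Tnfsf11, ligands that adult ML cells make in response to hormones, had 0 UMIs before puberty, against 870 and 17 UMIs in the adult. At 19.2 CPM Calca was below the level set for a measured gene, and over the adult libraries it ran from 0.034 to 1044 CPM. Greb1, an estrogen target, had 0 against 268 UMIs.

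**Figure D5:**
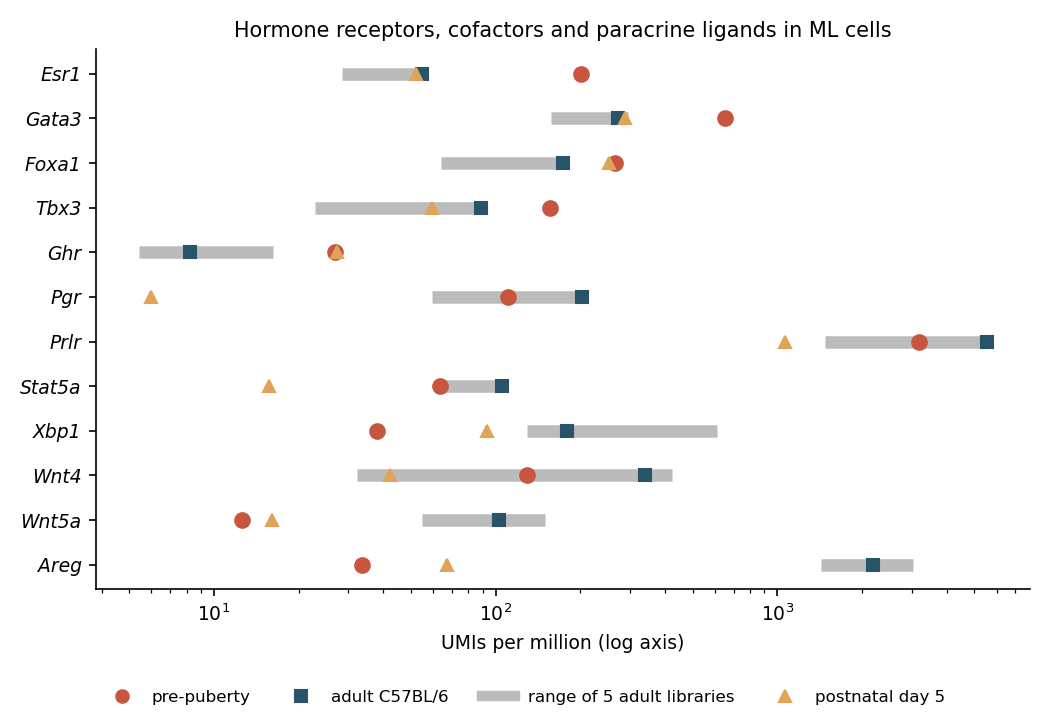
Levels of hormone receptors, co-factors and signals in ML cells, in CPM on a log axis, with pre-puberty as dots, adult C57BL/6 as squares, the range of 5 adult libraries in grey and postnatal day 5 as triangles. Areg lies at 33.4 CPM before puberty and Esr1 at 202 CPM, on opposite sides of their adult ranges.

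Of 13 measured genes listed as features of the adult mature luminal cell, 7 were at least 2-fold lower and 1 higher, with a median log2 ratio of -1.23. Ido1, which breaks down tryptophan, was 12.2 against 183 CPM, with an adult range of 0.528 to 362. Fgb, a fibrinogen chain, was 171 against 574 CPM, and Fxyd2, a regulator of the sodium pump, 304 against 712 CPM. Gpx3 (499 against 2233 CPM), a secreted peroxidase, and Ly6a (235 against 1237 CPM), a surface antigen, were lower too and both belong to the shared lower group. Keratins other than the gate genes, of whichever layer, were also mostly lower in ML cells. Of 5 measured, 4 were at least 2-fold lower, among them Krt7 at 306 against 1031 CPM, Krt19 at 2026 against 4189 CPM and Krt6a at 24.8 against 114 CPM.

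Some transcripts of adult ML cells were not found before puberty at all. Aoc1, a diamine oxidase that breaks down histamine and polyamines, had 0 UMIs in 528 pre-pubertal ML cells and 334 CPM in the adult, at least 1060-fold lower when set against a floor of 3 counts in the library, or 862-fold at the lower bound of the counting interval. After thinning, 23.8% of adult ML cells held Aoc1 (35.7% without thinning), against 0 of 528, which allows up to 0.568% of cells with a detected transcript at that depth. The adult range of Aoc1 was 0.151 to 334 CPM, so adult libraries differed among themselves at least as widely, and the SWISS value lay under the level of 3 counts before puberty. Defb1, a defensin, had 0 UMIs against 215 CPM, at least 682-fold lower (lower bound of the interval 554), and lay between 20.4 and 507 CPM in every adult library. Sbp had 0 UMIs against 70.8 CPM, at least 225-fold lower (lower bound 183), although 1 or more adult libraries also had none. Tph1, the enzyme that starts serotonin synthesis, had 1 UMI, or 0.105 against 60.7 CPM, and 28.4 to 1033 CPM in the adults.

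The remaining lower genes of the ML list were Trpc6, a cation channel (0.210 against 56.3 CPM, 268-fold), Scand1 of the shared lower group (1.16 against 136 CPM, 117-fold), and Mfsd2a, a lipid transporter (0.525 against 43.6 CPM, 83.1-fold). Epgn, another ligand of the epidermal growth factor receptor, was 0.525 against 33.9 CPM, 64.6-fold lower (27.6 to 199), with 17.2 to 33.9 CPM in the adults. Iigp1, an interferon-inducible GTPase, was 3.36 against 178 CPM, Syn2, a synapsin, 3.05 against 154 CPM, Nipal1, a magnesium transporter, 0.946 against 45.5 CPM, and Il6ra, the interleukin-6 receptor, 1.16 against 47.2 CPM. These last 4 were between 40.8-fold and 53.1-fold lower.

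At the other end, Cyp2f2, a cytochrome P450, was 91.1 against 0.596 CPM in ML cells, 153 times higher (104 to 233), with at most 1.49 CPM in any adult library. Igsf21, an adhesion protein, was 29.4 against 0.0441 CPM and Tnc, the matrix protein tenascin-C, 31.5 against 0.243 CPM. Il33, an alarmin cytokine, was 271 against 16.1 CPM (16.9 times higher, 15.5 to 18.4; adult range 7.18 to 121). Peg3 (111 against 2.72 CPM), Palmd (47.8 against 1.61 CPM), Scara3 (58.5 against 2.54 CPM) and Serpine2, a protease inhibitor (69.8 against 3.71 CPM), were 18.8 to 40.8 times higher. Some of the tallest ratios came from a handful of cells. For H19, an imprinted non-coding RNA (34.8 against 0.155 CPM, within the adult range of 0 to 133), 5 cells held 68.0% of pre-pubertal UMIs, for the lectin Reg3b (67.5 against 1.06 CPM) 59.2%, and for Apod, apolipoprotein D (227 against 9.56 CPM), 32.7%.

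Pre-pubertal ML cells carried more transcripts of several genes that mark progenitors in the adult. Measured in gates rebuilt without each gene, the receptor Kit was 99.3 against 33.1 CPM in ML cells, the aldehyde dehydrogenase Aldh1a3 119 against 42.3 CPM, Cd14 126 against 53.4 CPM, and the alveolar regulator Elf5 47.8 against 21.8 CPM, while Plet1 was level at 285 against 267 CPM. Of 9 measured LP regulators outside the gate, 5 were higher and 2 lower, with a median log2 ratio of 1.16, and the 2 lower ones, Cebpb and Cebpd, belong to the shared lower group. Sox10 was 37.1 against 7.44 CPM and Ehf, an epithelial factor, 81.1 against 36.4 CPM. Milk genes followed the same direction: of 9 measured, 6 were higher and 2 lower, beside 6.11% and 14.4% of all ML genes, median 1.20. Summed over the list they came to 2541 against 825 CPM, within the adult range of 825 to 3896, of which adult C57BL/6 was the lowest. Csn3, kappa-casein, was 619.7 against 101 CPM (6.14 times higher; adult range 101 to 509), Wfdc18, a whey protein, 1306 against 349.6 CPM and Lalba, alpha-lactalbumin, 29.2 against 7.90 CPM. Notch pathway genes were higher in 3 of 7, beside 6.11% of all ML genes, with Notch1 at 109 against 41.6 CPM, Notch2 at 37.4 against 13.0 CPM and the target Hey1 at 38.1 against 9.47 CPM.

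The 2 luminal classes were also less far apart from each other before puberty than in the adult C57BL/6 library. Lineage genes were chosen in the adult SWISS library as those at least 4-fold higher in a class than in another and over 50 CPM. The 90 genes chosen as higher in ML than LP were a median 4.08-fold higher in pre-pubertal and 8.03-fold higher in adult C57BL/6 cells, and the 84 chosen as higher in LP than ML gave 3.23-fold and 7.19-fold. Within ML cells the former set had a median ratio, pre-pubertal over adult, of 0.506 and the latter 1.62. On these luminal sets A10 gave 8.61-fold and 7.12-fold, and D12 5.30-fold and 6.37-fold. Basal and ML cells were 6.77-fold apart before puberty and 11-fold in the adult over 253 basal genes, and 6.14-fold and 10.4-fold over 147 ML genes. D12 gave 6.74-fold and 5.21-fold there, so the basal and ML contrast before puberty lay within the adult values. The basal and LP contrast was close before puberty and in adult C57BL/6, at 8.30-fold and 8.20-fold over 186 basal genes and 4.66-fold and 5.21-fold over 130 LP genes. Choosing the genes in an adult library can by itself make adult contrasts larger. As a description over 7632 genes of each class sum, pre-pubertal ML correlated with adult ML at r = 0.861 and with adult LP at 0.788, and pre-pubertal LP with adult LP at 0.870 and with adult ML at 0.727, while matched classes of the adult SWISS and C57BL/6 libraries gave 0.916 to 0.925.

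Basal cells before puberty held more oxytocin receptor transcript and more of several imprinted genes. Oxtr, the receptor through which oxytocin triggers myoepithelial contraction, was 952 against 256 CPM in basal cells, 3.73 times higher (3.58 to 3.88) and far above the adult range of 63.4 to 274 CPM. Its transcript was in 81.2% of pre-pubertal and 36.2% of adult basal cells after thinning and in 98.1% and 53.8% without. Collagen-marker cells gave 4.62% and 1.22% after thinning. Of 14 contractile genes measured, 4 were at least 2-fold higher and none lower, with a median log2 ratio of 0.39 against 0.19 for all genes: besides Oxtr these were the myosin light chain Myl9 (2078 against 744 CPM, within the adult range of 744 to 2613), smoothelin Smtn (346 against 154 CPM) and Synpo2 (79.7 against 24.8 CPM). The abundant contractile genes were close between the ages. Acta2, smooth muscle actin, was 12254 against 9467 CPM in gates without it, Tagln, transgelin, 4388 against 6074 CPM, and Cnn1, Myh11 and Mylk had ratios of 1.42, 1.25 and 1.36. The chemokine Cxcl14 (1524 against 2758 CPM) and Il17b (402 against 674 CPM), also gate genes, were lower, by less than 2-fold.

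Of 14 basal identity genes measured, 3 were higher and 2 lower, shares near the 11.4% and 12.7% of all basal genes. Snai2, a transcription factor of the basal programme, was 159.7 against 52.7 CPM, Vim, vimentin, 1745 against 437 CPM (3.99 times higher, 3.88 to 4.12; adult range 151 to 724), while Trp63, the master factor of basal epithelia, 146 against 103 CPM, was less than 2-fold apart. Krt15 was lower, at 134 against 515 CPM, while postnatal day 5 had 4125 CPM. Apoe, at 909.9 against 6928 CPM, belongs to the shared lower group. The third higher gene was Col17a1, a hemidesmosome collagen, at 423 against 201 CPM. Of 20 basement membrane and matrix genes, 3 were higher and 1 lower, also near the shares of all basal genes. The higher ones were Sparc, a collagen-binding protein (3863 against 1399 CPM), Col18a1 (306 against 70.2 CPM) and Fn1 (98.7 against 43.9 CPM), and the lower one Nid1 (17.2 against 35.4 CPM).

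Imprinted genes are expressed from a single parental copy and often govern growth. Of 11 genes measured from this list in basal cells, 6 were higher and none lower, beside 11.4% and 12.7% of all basal genes, with a median log2 ratio of 1.45 against 0.19. Peg3 was 354 against 26.6 CPM, 13.3 times higher (11.9 to 15.0), and was found in 43.8% of pre-pubertal and 5.03% of adult basal cells after thinning (77.4% and 8.72% without) and in 13.9% and 6.52% of collagen-marker cells after thinning. Grb10, an inhibitor of insulin signalling, was 25.7 against 2.08 CPM, Plagl1 41.4 against 10.9 CPM, Gpc3, an X-linked proteoglycan that the list also holds, 67.4 against 22.5 CPM and Meg3 349.5 against 128 CPM. Leaving out haemoglobin, H19 led the named basal genes: 51.5 CPM against 1 UMI (0.0903 CPM), 570.1 times higher with a counting interval of 102 to 22540. It was at most 2.10 CPM in any adult library and 934 CPM at postnatal day 5. After thinning, 7.82% of pre-pubertal basal cells held H19 against 0 of 2564 adult ones, which allows up to 0.117% with a detected transcript at that depth, and without thinning the shares were 18.4% and 0.0360%.

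Further genes leading the basal list have their best known roles in nerve cells. Nrcam, a cell adhesion molecule, was 122 against 1.35 CPM, 90.2 times higher (54.6 to 161; adult range 0.733 to 6.30), and was in 20.5% against 0.234% of basal cells after thinning and 52.4% against 0.540% without. Collagen-marker cells gave 2.31% and 0.407%. Scn9a, a sodium channel (30.4 against 0.0903 CPM), Slc6a2, the noradrenaline transporter (32.7 against 0.271 CPM), Slc5a7, the choline transporter (37.3 against 1.08 CPM), and Sncg, gamma-synuclein (262 against 13.6 CPM, 19.2 times higher, 16.4 to 22.8) were likewise higher. The list also held Tnni2, a troponin (40.1 against 0.632 CPM), Adamtsl1 (92.0 against 3.25 CPM), Shank2, a scaffold protein (24.4 against 1.17 CPM), Angpt1, angiopoietin-1 (20.5 against 1.26 CPM), and Tspan8, a tetraspanin (109 against 7.32 CPM).

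Among the genes lower before puberty in basal cells, Lmo1, a LIM-domain transcriptional co-regulator, was 6.15 against 338 CPM, 54.9-fold lower (45.8 to 66.3). The 5 adult libraries were close to each other at 256 to 344 CPM, but postnatal day 5 had 493 CPM, so the pre-pubertal library was low between an earlier and a later age. Lmo1 was in 0.978% of pre-pubertal and 46.5% of adult basal cells after thinning and in 4.41% and 65.7% without, against 0 of 346 and 1.43% of collagen-marker cells. Wnt10a, a canonical WNT ligand, showed the same order, at 0.605 against 32.3 CPM (53.4-fold lower, 30.2 to 104), with 32.3 to 83.4 CPM in the adults and 71.9 CPM at postnatal day 5. Nrtn, a neurotrophic ligand of the GDNF family, was 4.08 against 169 CPM, with 162 to 244 CPM in the adults. Gch1, which starts tetrahydrobiopterin synthesis, was 1.26 against 81.7 CPM, Ccl2, a monocyte chemokine, 1.82 against 77.8 CPM, Uts2b, a urotensin-related peptide, 0.101 against 33.1 CPM, and Tenm2, a teneurin, 1.82 against 54.4 CPM. St8sia6 (0.605 against 30.3 CPM), Ccdc85b (1.66 against 51.3 CPM) and Fbln7, a fibulin (2.02 against 48.3 CPM), completed the list with Cebpb (34.9 against 1904 CPM) and Scand1 (2.67 against 132 CPM), both of the shared lower group.

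WNT pathway genes of basal cells were split: of 14 measured, 6 were higher and 5 lower. The inhibitor Sfrp1 was 208 against 16.0 CPM, 13.0 times higher, with an adult range of 4.01 to 72.4 CPM. The R-spondin receptors Lgr4 (166 against 56.5 CPM) and Lgr5 (149 against 65.7 CPM), the secreted Dkk3 (123 against 49.2 CPM) and the effector Tcf7l2 (261 against 115 CPM) were higher as well, with Wnt5a as given above. Lower were Wnt10a, Wnt6 (3.08 against 23.0 CPM), Wnt5b (3.53 against 20.5 CPM), the receptor Fzd1 (10.8 against 28.4 CPM) and the effector Tcf7 (6.86 against 25 CPM). Wnt6 stood at 111 CPM at postnatal day 5. Insulin-like growth factor genes were lower in 4 of 10 and higher in 1, beside 12.7% and 11.4% of all basal genes, with Igfbp7, a binding protein, at 33.4 against 557 CPM and Igfbp2 at 50.9 against 218 CPM. Pthlh, the parathyroid hormone-like signal of the embryonic mammary bud, was 96.2 against 17.2 CPM.

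Luminal progenitors had the fewest genes higher before puberty. Sfrp1 led them at 38.2 against 1.30 CPM, 29.4 times higher (17.2 to 54.6; adult range 1.30 to 15.3), followed by Lgr5 at 68.9 against 3.34 CPM, 20.6 times higher (14.7 to 29.9; adult range 0.0985 to 5.92). Lgr5 was in 12.5% of pre-pubertal and 0.379% of adult LP after thinning (34.4% and 1.23% without), against 24.9% and 11.6% of basal cells and 6.94% and 0.611% of collagen-marker cells. Sfrp1 was in 5.57% and 0.211% of LP after thinning (26.9% and 0.521% without), against 28.9% and 3.26% of collagen-marker cells. In each library its LP share thus lay below that of a class outside the epithelium. That class was of unlike make-up in the libraries, so its shares are not a change within like cells. Oxtr was 167 against 15.8 CPM (10.6 times higher, 8.98 to 12.5; adult range 15.0 to 36.2), in 24.5% against 2.19% of LP cells after thinning and 58.9% against 4.51% without. Apod was 1179.5 against 88.8 CPM (13.3 times higher, 12.4 to 14.2; adult range 9.21 to 612).

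The other leading LP genes were Fgfbp1, which releases fibroblast growth factors (85.3 against 5.29 CPM), Palmd (88.6 against 10.0 CPM), Serpine2 (23.6 against 2.78 CPM), the annexin Anxa8 (80.4 against 10.2 CPM), Peg3 (65.5 against 8.53 CPM) and the chemokine Cxcl17 (29.1 against 3.90 CPM). Upk3a, a uroplakin (53.1 against 2.60 CPM), and S100g, a calcium-binding protein (108 against 12.1 CPM), rested on few cells, with 91.4% and 42.4% of their pre-pubertal UMIs in 5 cells. Sostdc1, a BMP and WNT antagonist, was 181 against 26.5 CPM. The luminal factors Gata3 and Tbx3 were also higher in LP, at 337 against 157 CPM and 83.7 against 24.2 CPM. Of 12 LP regulators outside the gate, 2 were higher and 2 lower. The gate genes Kit (445 against 381 CPM), Elf5 (235 against 219 CPM), Aldh1a3 (562 against 486 CPM) and Cd14 (583 against 525 CPM) had ratios of 1.17, 1.07, 1.15 and 1.11, while Plet1 was 844 against 1854 CPM.

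Of 9 innate defence genes measured in LP, 4 were lower and none higher, with a median log2 ratio of -0.31 against 0.05 for all genes. Complement C3 was 5.85 against 125 CPM, and the neutrophil chemokine Cxcl2 9.91 against 227 CPM (22.9-fold lower, 17.7 to 30; adult range 95.7 to 1613). Cxcl1 was 55.7 against 286 CPM and belongs to the shared lower group. Csf3, a granulocyte growth factor, was 2.44 against 69.9 CPM, and Hbegf, a ligand of the epidermal growth factor receptor, 41.1 against 349 CPM, below the adult range of 241 to 349. Slc28a3, a nucleoside transporter, was 15.6 against 324 CPM (20.8-fold lower, 17.0 to 25.7; adult range 73.7 to 784). The list of 12 lower LP genes also held Slc25a33, a mitochondrial carrier (0.975 against 55.6 CPM), Srxn1, a sulfiredoxin (1.95 against 72.7 CPM), Nrtn (3.57 against 84.6 CPM), Gch1 (2.76 against 60.9 CPM), Rnf125 (3.09 against 60.6 CPM) and, from the shared lower group, Scand1 (1.30 against 118 CPM), Cebpb (51.3 against 2118 CPM), Tmem238 (2.92 against 85.5 CPM) and Dapk3 (0.812 against 23.2 CPM).

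Milk genes of LP were mostly close, with 1 of 11 higher and 1 lower. Csn3 was 2947 against 1471 CPM, within the adult range of 1471 to 10456, and Lalba, Wfdc18, Ltf and Lcn2 had ratios of 0.948, 1.13, 0.809 and 0.851. The lower gene was Trf, transferrin (199.9 against 990.3 CPM), of the shared lower group. Some lower LP genes are ones that stromal cells express. Fn1, fibronectin, was 13.8 against 132 CPM, Nid1, nidogen, 3.57 against 41.3 CPM, Serpinf1 2.44 against 26 CPM and Igfbp6, of the shared lower group, 0.325 against 174 CPM, beside summed fibroblast markers of 43.5 against 590 CPM in the same cells. Their part in those differences was not tested.

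Many genes of MHC class I and antigen presentation were lower. Of those measured, interferon genes included, which differed between the classes, 8 of 10 were at least 2-fold lower in basal, 7 of 16 in LP and 7 of 10 in ML cells, beside 12.7%, 12.7% and 14.4% of all genes, and none were higher, with median log2 ratios of -1.58, -0.82 and -1.44. The heavy chain H2-K1 was 184 against 539 CPM in basal and 494 against 1274 CPM in ML cells, and H2-D1 149 against 351 CPM and 264 against 893 CPM. Their light chain B2m was 107 against 259.7 CPM in basal, 97.0 against 210.2 CPM in LP and 75.2 against 422 CPM in ML cells, and belongs to the shared lower group. In endothelial-like cells H2-K1 and H2-D1 had ratios of 0.425 and 0.443. In LP the class II gene Cd74, which immune cells express, was 0.487 against 55.4 CPM, beside summed immune markers of 0.650 against 22.1 CPM. In ML the interferon-inducible Bst2 was 22.4 against 149 CPM and the proteasome subunit Psmb8 104 against 321 CPM.

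Higher in all 3 classes were 64 genes outside the haemoglobin, mitochondrial and ribosomal groups. Peg3 led them, followed by Bcl11a, a transcription factor, at 42.0 against 2.98 CPM in basal, 59.0 against 21.1 CPM in LP and 23.6 against 1.92 CPM in ML cells. Oxtr, Serpine2, Tspan8, Csn3, Sox10, Inhbb, Tcf7l2 and Notch2 were also among the 64. Their summed levels were 3.15, 2.36 and 3.6 times those of the adult in basal, LP and ML cells, and 1.64, 1.53 and 1.61 times in endothelial-like, pericyte-like and collagen-marker cells. The last ratio compares cells of unlike make-up, with Sox10 at 423 against 7.49 CPM. Of 48 of the genes measured there, 27 were at least 2-fold higher and 8 lower, beside 22.7% and 21.5% of all genes. Several genes were higher in a class and lower in another: besides Wnt5a, the growth factor Ptn, pleiotrophin, was 959 against 353 CPM in basal but 3211 against 7964 CPM in ML cells, and Palmd 7.97 against 34.3 CPM in basal although higher in both luminal classes.

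Some cell cycle genes were higher in the luminal classes. Of 14 measured in LP, 6 were at least 2-fold higher and none lower (median log2 ratio 0.73), and of 8 in ML, 4 were higher and none lower (0.89), while in basal cells 0 of 10 were higher and 1 lower (0.27). In LP Mki67 was 35.7 against 17.5 CPM, Top2a 42.7 against 18.7 CPM and Ube2c 42.7 against 14.7 CPM, all markers of dividing cells. In ML 3 of the 4 higher genes (Hmgb2, Stmn1 and Tuba1b) are also expressed by cells outside the cycle, and the fourth, the replication gene Mcm3, was 25.7 against 4.04 CPM. Ccnd1, cyclin D1, was 569 against 231 CPM in ML. Leaving out pre-pubertal cells with over 1000 CPM of haemoglobin lowered the LP median from 0.73 to 0.35. As a share of cells with at least 2 UMIs of the 25-gene list after thinning, basal cells gave 54.7% against 62.8%, LP 56.3% against 44.7% and ML 43.6% against 29.6%. Such a share counts transcripts and not divisions. A shorter list, made after seeing the data by leaving out 6 genes that cells also express outside the cycle, gave 3.23% against 2.46%, 5.57% against 2.86% and 4.92% against 1.58%. The basal difference therefore turned with the list, and the luminal ones kept their direction. Summed over the 25-gene list, adult C57BL/6 was the lowest of the 5 adult libraries in every class. The pre-pubertal sum lay within the adult range in LP (1575 CPM, range 1125 to 4737) and ML (1013 CPM, 617 to 4261). In basal cells it lay just below (1415 CPM, 1473 to 5645). The luminal short-list shares also lay within the adult libraries, which ran from 2.13% to 30.2% in LP and 1.58% to 31.6% in ML.

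Immediate early genes, which cell dissociation can induce, and heat shock genes were counted together in a list of 17. Of these, 7 were lower in basal and 6 in LP cells with none higher, beside 12.7% of all genes lower in each class. In ML 3 were higher, beside 6.11% of all genes, and 2 lower, near the 14.4% of all ML genes. Hspb1, a heat shock gene of the shared lower group, was among the lower genes in all 3 classes. Fos was 7698 against 3339 CPM and Egr1 1684 against 764 CPM in ML cells, whereas Junb was 720.2 against 2854 CPM in basal cells. Jund, of the shared lower group, was 110.3 against 1345 CPM in basal and 301 against 2796 CPM in ML cells. Genes of lipid synthesis were lower in 5 of 16 and higher in 2 in basal cells (median log2 ratio -0.70), lower in 2 of 13 in LP (0.38) and lower in 4 of 13 in ML (-0.64), with none higher in the luminal classes. The higher share in basal cells and the lower share in LP were near those of all genes, 11.4% and 12.7%. Among those lower in ML were Sqle (26.6 against 86.6 CPM), Idi1 (12.9 against 33.9 CPM) and Cyp51 (12.5 against 36.8 CPM), all enzymes of cholesterol synthesis. The adult C57BL/6 library was the highest of the adult libraries for each, and Idi1 and Cyp51 lay within the adult range before puberty. In basal cells Plat, a plasminogen activator, was 8.77 against 74.1 CPM, below the adult range of 13.0 to 218. Of 8 growth regulators of the fetal gland measured in ML, 3 were higher and 1, Ptn (3211 against 7964 CPM), lower. The higher ones included Mdk, midkine (49.0 against 10.6 CPM), and Bex4 (43.4 against 7.04 CPM), both above the adult range, and the insulin-like growth factor receptor Igf1r was 56.4 against 14.3 CPM. Claudins and tight junction genes were nearly level, with 1 of 11 lower in LP and none different among 4 in basal and 11 in ML cells.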

How the data were processed

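Single cell RNA-seq libraries were made with the 10x Chromium 3′ kit. The deposited values were whole-number counts of UMIs per gene and cell barcode for 31053 features, which the authors produced with Cell Ranger (3.1.0 for pre-puberty and 3.0.2 for adult C57BL/6, per the file headers) against mm10, exporting barcodes with at least 500 reads. Nothing in the files was normalized. The labels list Cell Ranger 3.1.0 and edgeR.

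Counts were summed per library and class and divided by the class total, so deep cells weigh more, and genes such as haemoglobin share that total. Ratios carry exact conditional Poisson intervals, shares exact binomial ones and differences of shares Newcombe's. Gate genes were measured in gates rebuilt without them. The design planned no test, since each group was 1 library, and no doublet caller was run. Named genes were the 12 measured genes with the largest ratio in each direction and class whose whole interval was past 2-fold, plus members of 24 gene lists. Left out of the 12 were gate, haemoglobin, mitochondrial, ribosomal and unnamed genes and genes over 10 times higher in another class of the same library (among lower genes 35 in basal, 72 in LP and 24 in ML), such as Dcn and Igfbp6 in LP, which are lower than any LP gene listed. The members and the lists were chosen with earlier results of these data known. The genes lower or higher in all 3 classes were named after their values were seen. A few items are not reported here.

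Cells were thinned with seed 7. Median depth was 7300.5 UMIs per cell before puberty and 4964 in the adult. The scripts were tested on simulated data. Alternatives were TMM (edgeR 4.0.16) and DESeq2 1.42.0 size factors, filters, gates, thresholds and cell limits. Python 3.11.15 with numpy 2.4.6, scipy 1.17.1 and pandas 2.3.3, and R 4.3.3, were used. Promoters came from RefSeq GRCm38.p6.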

Additional observations from a re-analysis of the deposited data

Results flagged for a closer look

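Some genes stood at least 2-fold apart in opposite directions in different classes, as ratios of pre-pubertal over adult levels, and these differences between classes were not tested. Fn1 had a ratio of 2.25 in basal, 0.104 in LP and 0.171 in ML cells. Serpinf1 had 2.96 in basal and 0.0938 in LP, and Meg3 2.74 in basal and 0.177 in LP. All 3 are also expressed by stromal cells, whose summed markers were 135 against 574 CPM in basal and 43.5 against 590 CPM in LP cells. Palmd had 0.232 in basal, 8.84 in LP and 29.7 in ML cells. Ptn had 2.72 in basal and 0.403 in ML, and Wnt5a 2.61 in basal and 0.123 in ML. Nid1 had 4.54 in ML and 0.0866 in LP.

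Among cells outside the 3 classes, the pre-pubertal library held 181 erythroid-like cells against 0 in the adult, although the sort was set to remove Ter119-positive cells.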

How the results depend on the processing

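No paired analysis was possible because each group was a single library with no number shared between replicates. Every difference of class shares kept its direction. The basal difference became 41.0 percentage points with a mitochondrial limit of 10%. The LP difference of -6.44 became -4.94 with gates on thinned cells, -4.92 with stricter gates, -4.71 with the mitochondrial limit of 10% and -3.58 with at least 1000 genes per cell, and the ML difference became -40.5 with thinned gates and -40.7 with 1000 genes.

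The number of basal genes higher before puberty went from 731 to 482 with TMM and 475 with DESeq2 size factors, which moved the share of higher genes among those past 2-fold from 47.3% to 32.3% and 31.9% and the median log2 ratio of all basal genes from 0.19 to 0.01 and 0.00. In ML, totals without mitochondrial, ribosomal and haemoglobin genes gave 569 higher genes, a share of 45.8% against 29.8%, and a median of 0.17. In ML the median was -0.17 with TMM and -0.19 with DESeq2 size factors. Without the filter on low counts 4723 genes were higher and 3511 lower in basal, 2473 and 4293 in LP, and 3212 and 5335 in ML cells. At 3-fold the counts were 200 and 396 in basal, 71 and 365 in LP, and 157 and 421 in ML cells. None of the 72 named results fell under 2-fold in the 10 alternatives computed for each. They were picked for the largest ratios, the smallest being 7.47 for Cxcl17 in LP, so this outcome was largely set by the choice.

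With lineage genes chosen in D12, median log2 contrasts before puberty and in the adult were 3.56 and 3.34 for basal over LP, 3.20 and 3.6 for LP over basal, 3.27 and 3.82 for basal over ML, and 2.58 and 3.85 for ML over LP, with 4.07 in the adult for ML over basal. On these genes adult SWISS gave 3.06 for basal over ML and 2.61 for ML over LP, below or near the pre-pubertal values. For LP over ML the values were 1.79 before puberty, 2.96 in adult C57BL/6 and 2.10 in SWISS. The basal difference in cycling shares, -8.08 points, reversed to 12.8 without thinning and to 0.774 with the list shortened after seeing the data. The LP difference of 11.7 became 5.23 at 3 or more UMIs, 26.9 without thinning and 2.70 with the shortened list, and the ML difference of 13.9 became 3.34 with that list. Prlr in LP had a ratio of 0.664 in gates without it and 1.38 with it kept. The causes were not tested, beyond what each setting itself changes. The haemoglobin median in basal cells gave no value at the 10% mitochondrial limit, because adult counts of its genes reached 0. With 1 library per group no replicate could be left out, and the pre-pubertal ML and LP classes held 528 and 579 cells.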
